A study of Mus musculus with 82 samples.

Results

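The perineurium and epineurium are the sheaths of a peripheral nerve, and the values of 10 genes known from their cells are given here across 82 mouse sciatic nerve libraries. The genes came from a fixed list of names and were matched ignoring case: Cldn1, Itgb4, Perp, Krt19, Ntng1, Moxd1, Omd, Meox2, Dpt and Clec3b. The list was chosen with earlier results of these data known, so shares of members called beside those of all genes only describe it. All 10 were found in each of the 8 deposited count tables, which list between 18003 and 53278 genes, and all 10 passed the filter on low counts in every comparison.

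The perineurium wraps each nerve fascicle in layers of flattened cells, joined by tight junctions and bounded by basement membranes, and forms the diffusion barrier between the nerve and its surroundings. The epineurium outside it is a collagen-rich connective tissue with fibroblasts, vessels and fat. Schwann cells, the glia of the nerve, secrete Desert hedgehog, which is known to guide the formation of the perineurium. After a nerve injury Schwann cells dedifferentiate, macrophages enter, and the sheaths are remodelled while axons regrow.

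Poly(A) RNA of whole sciatic nerve was sequenced in 22 groups. Fig4 -/- nerves stood against Fig4 +/+ nerves in a table for postnatal day 12 (P12) and in another for P4, with 3 libraries a group. Fig4 is a phosphoinositide phosphatase of the endosome. Libraries labelled Mitf stood beside libraries labelled DhhCre at P21 (5 each) and beside libraries labelled Egr2Cre at P12 (3 each). Dhh and Egr2 are Schwann cell genes whose regulatory regions drive Cre recombinase. A further table held nerves labelled Mitf, 4 taken 3 days post injury and 4 uninjured. The time course held nerves labelled Mutant and wild type at 3, 7 and 14 days post injury, 3 a group. In 1 table, whose labels give neither age nor injury, 3 libraries were called Egr2Cre Mitf and 3 Mitf. The last, also without an age, held 5 Mitf-Ndrg1, 5 Ndrg1, 6 Mitf and 6 control libraries. Ndrg1 encodes a cytoplasmic protein that myelinating Schwann cells make in quantity. The labels do not say which of the names Mitf, DhhCre, Egr2Cre and Mutant carries an altered Mitf gene, nor the kind of injury, so directions are given by label. They are also silent on whether each sample was a different animal, and p-values therefore describe only the spread among these samples, which may be technical.

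Libraries held 15438783 to 34531474 estimated counts. Levels are in CPM, a gene's counts relative to the total of its library, with library sizes scaled within each table by TMM, which corrects for composition, so levels set side by side across tables were scaled separately. Fold changes are log2, first-named group over second, and a gene is called when edgeR's adjusted p over all genes of the comparison was under 0.05. Schwann cell markers, which mark the labelled tissue, were present in every library and summed to between 803 CPM, in a wild type library 7 days post injury, and 215177 CPM, in a Mitf library at P12. Summed skeletal muscle genes ran from 1.51 to 122932 CPM, and 19 libraries stood over 5 times their table's median. Results that change without these muscle-rich libraries are given with and without them. The mark is relative to a table, so the libraries left are not free of muscle genes. It took in a DhhCre library at 28.7 CPM and none of the table of Egr2Cre Mitf, at 13201 to 57848 CPM. Epidermal marker genes summed to between 2.77 and 26.1 CPM in every library. Of 3 such genes tested in the time course, 2 rose from 3 to 7 days and 2 from 7 to 14 days in Mutant nerves. In wild type nerves 1 rose over each interval. Their part in the members' values was not tested.

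The sequences below are the 250 bases upstream of the start of 3 members that rose together in the time course, Cldn1 (chr16:26371840-26372089, minus strand), Omd (chr13:49582212-49582461, plus strand) and Meox2 (chr12:37108290-37108539, plus strand), from RefSeq on GRCm38.p6. They are shown because Mitf, after which the study is titled, is known to bind the E-box CACGTG and the related CATGTG, read as CACATG on the other strand. Capitals mark a match to CATGTG on the printed strand.

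Cldn1: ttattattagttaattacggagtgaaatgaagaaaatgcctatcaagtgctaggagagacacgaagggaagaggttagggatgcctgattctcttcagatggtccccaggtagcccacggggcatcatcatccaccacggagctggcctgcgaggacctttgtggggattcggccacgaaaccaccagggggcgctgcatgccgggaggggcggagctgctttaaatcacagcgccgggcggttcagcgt

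Omd: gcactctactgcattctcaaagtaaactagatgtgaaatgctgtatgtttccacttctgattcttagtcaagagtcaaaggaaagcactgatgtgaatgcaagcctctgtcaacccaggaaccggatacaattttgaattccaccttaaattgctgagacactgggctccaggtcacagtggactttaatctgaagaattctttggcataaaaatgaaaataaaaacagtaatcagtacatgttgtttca

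Meox2: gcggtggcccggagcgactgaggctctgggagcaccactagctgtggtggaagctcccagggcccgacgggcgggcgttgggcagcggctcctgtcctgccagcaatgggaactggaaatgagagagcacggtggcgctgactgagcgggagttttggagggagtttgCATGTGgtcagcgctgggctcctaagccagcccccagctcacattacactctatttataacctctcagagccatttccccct

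Of the 10 members, 6 had a window in the RefSeq table: these 3 with Ntng1, Moxd1 and Dpt. CACGTG was in none of the 6, against 6.021% of 32851 windows of the same length. CATGTG or CACATG was in 2 of the 6, Meox2 and Dpt, against 12.25% of windows, and neither match overlapped a CACGTG. A match is a description of these letters and not a binding site.

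Per kilobase of exon, Itgb4 had the highest mean level of the 10 in uninjured nerves labelled Mitf, at 80.7 CPM per kb. Clec3b followed at 36.6 CPM per kb, Dpt at 28.3 and Cldn1 at 9.88. Meox2 (7.04), Krt19 (6.32) and Perp (6.04 CPM per kb) lay close together, within the spread between the 4 libraries, as did Omd (2.48), Ntng1 (2.35) and Moxd1 (2.21 CPM per kb). The order was another in wild type nerves 14 days post injury, where Dpt stood at 230.03 CPM per kb, Clec3b at 199, Cldn1 at 125 and Itgb4 at 3.61.

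**Figure D1:**
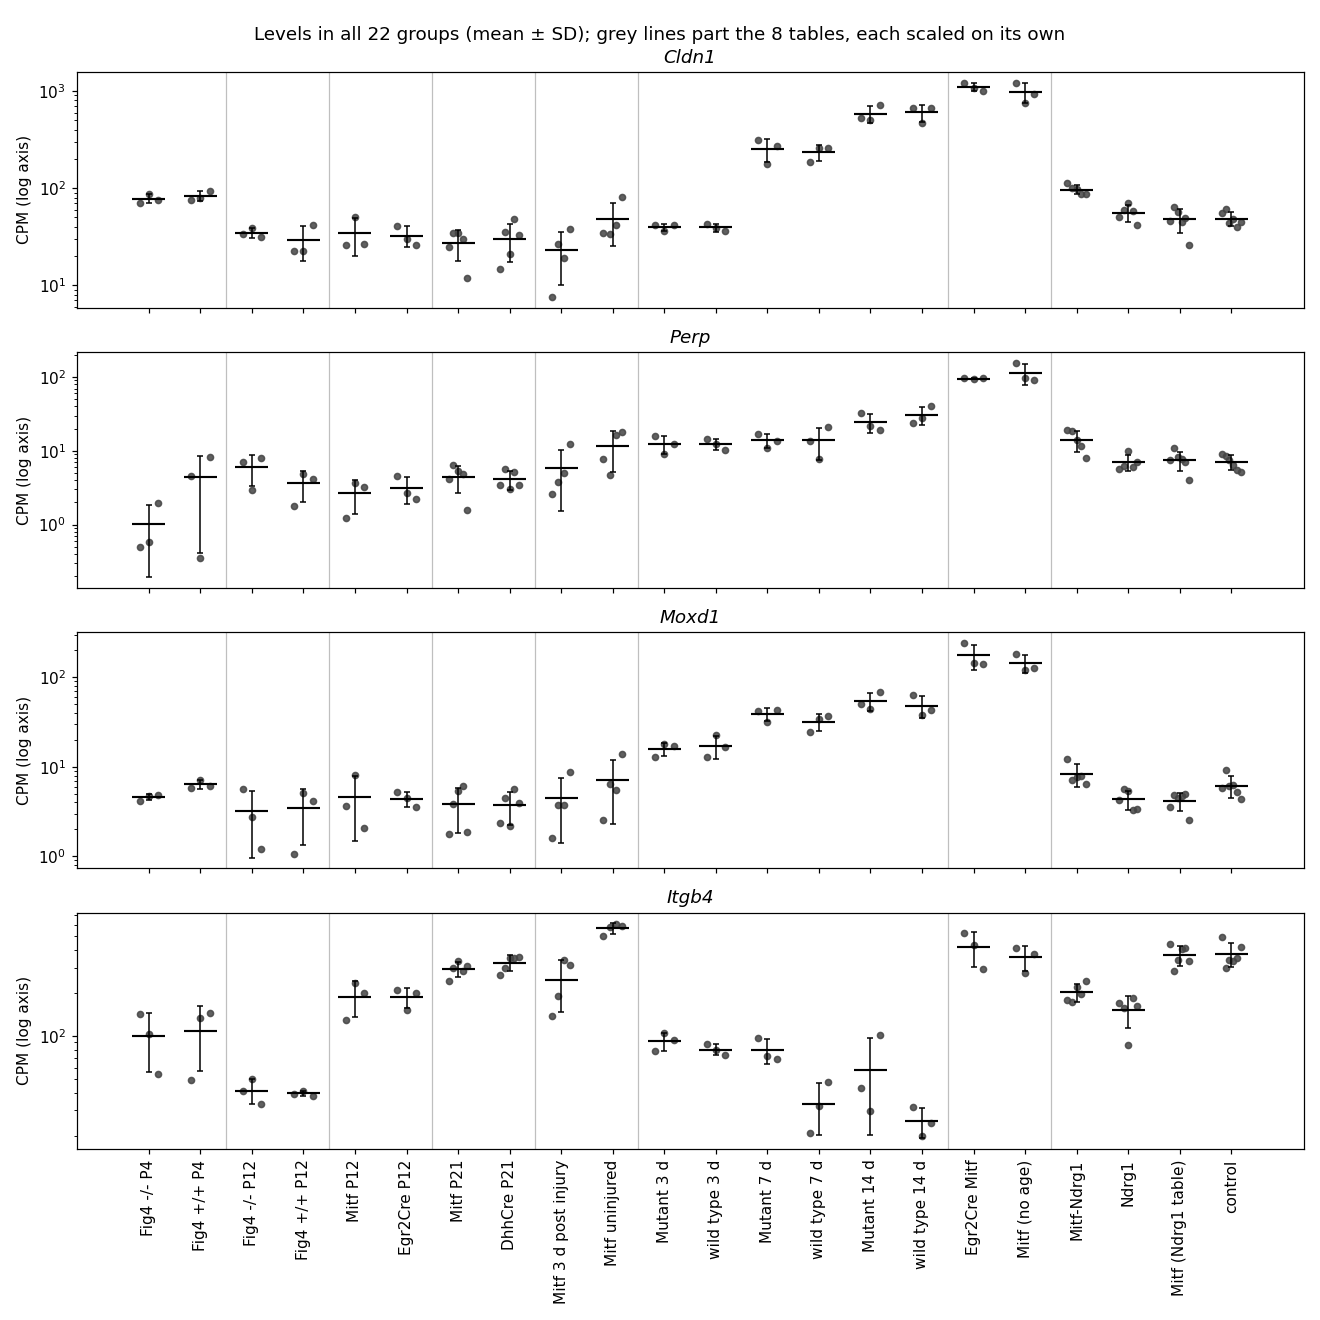
CPM on a log axis for Cldn1, Perp, Moxd1 and Itgb4 in all 22 groups, with points for libraries and bars for the mean and SD; grey lines part the tables, each scaled on its own. Cldn1, Perp and Moxd1 had their highest means in the table of Egr2Cre Mitf and Mitf without an age, and Itgb4 its lowest in wild type nerves 14 days post injury.

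In the nerves labelled Mitf, all 10 genes had negative fold changes 3 days post injury, and Itgb4 and Ntng1 passed the test. Itgb4 (ENSMUSG00000020758.15, chromosome 11, 115974709 to 116008412, plus strand, mm10) encodes the β4 integrin, a laminin receptor of perineurial cells that Schwann cells also make. It read 137, 189.9, 342 and 312 CPM in injured nerves, against 498, 576, 605 and 587 CPM in uninjured nerves. The groups did not overlap, and replicates 1 and 2 of the injured nerves lay below the other injured libraries. The log2 change of Itgb4 was -1.21 (SE 0.264, edgeR adjusted p = 0.0118).

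Ntng1 (ENSMUSG00000059857.15, chromosome 3, 109780040 to 110144011, minus strand) encodes netrin-G1, a membrane-anchored adhesion protein. It read 6.00, 11.5, 6.62 and 10.6 CPM in injured nerves, against 16.9, 18.2, 19.0 and 23.4 CPM in uninjured nerves, and every injured library was below every uninjured one. Ntng1 fell by 1.15 (SE 0.246, edgeR adjusted p = 0.0106). The 2 called members compare with 10.4% of 15245 genes called lower. The median change of the 10 was -0.82, against 0.03 over all genes tested. In whole nerve, fewer cells of a type and less RNA per cell cannot be told apart.

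The other 8 did not pass. Cldn1 (ENSMUSG00000022512.3, chromosome 16, 26356642 to 26371841, minus strand), the claudin of perineurial tight junctions, averaged 22.9 ± 12.9 CPM in injured and 47.8 ± 22.4 CPM in uninjured nerves (SD, n = 4 each), a change of -1.06 (edgeR adjusted p = 0.161; DESeq2 called it, adjusted p = 0.0459). Krt19 (ENSMUSG00000020911.14, chromosome 11, 100140810 to 100148665, minus strand), a keratin of simple epithelia, changed by -0.999 (adjusted p = 0.167). Perp (ENSMUSG00000019851.8, chromosome 10, 18845020 to 18857073, plus strand), a membrane protein of desmosomes, changed by -0.99 (adjusted p = 0.242). The remaining 5 ran from -0.66 for Moxd1 to -0.32 for Meox2, with Omd, Dpt and Clec3b between them (Clec3b adjusted p = 0.0797). The libraries of all these 8 genes overlapped between the groups.

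Of 9 measured tight and adherens junction partners, 5 were lower and none higher. They included Tjp1 (-0.95), which ties claudins to the cytoskeleton, Cldn12 (-0.79), Jup (-0.82), and Slc2a1 (-0.53), the glucose transporter enriched in the perineurial barrier. Of 10 partners of Itgb4, 2 were lower, Itga6, its α6 integrin partner (-0.98), and the linker Dst (-0.93). Schwann cell markers moved with them: 3 of 7 were lower (Mbp by 1.14, S100b by 0.74 and Sox10 by 0.79). Their sum was 34610, 37700, 84939 and 59023 CPM in injured nerves, against 93907 to 117245 CPM in uninjured nerves, and injured replicates 3 and 4 were the higher ones in both Itgb4 and this sum; the part of these cells in the result was not tested. Without the 2 muscle-rich uninjured libraries neither member was called (Itgb4 -1.35, adjusted p = 0.0671; Ntng1 -1.18, adjusted p = 0.0716).

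**Figure D2:**
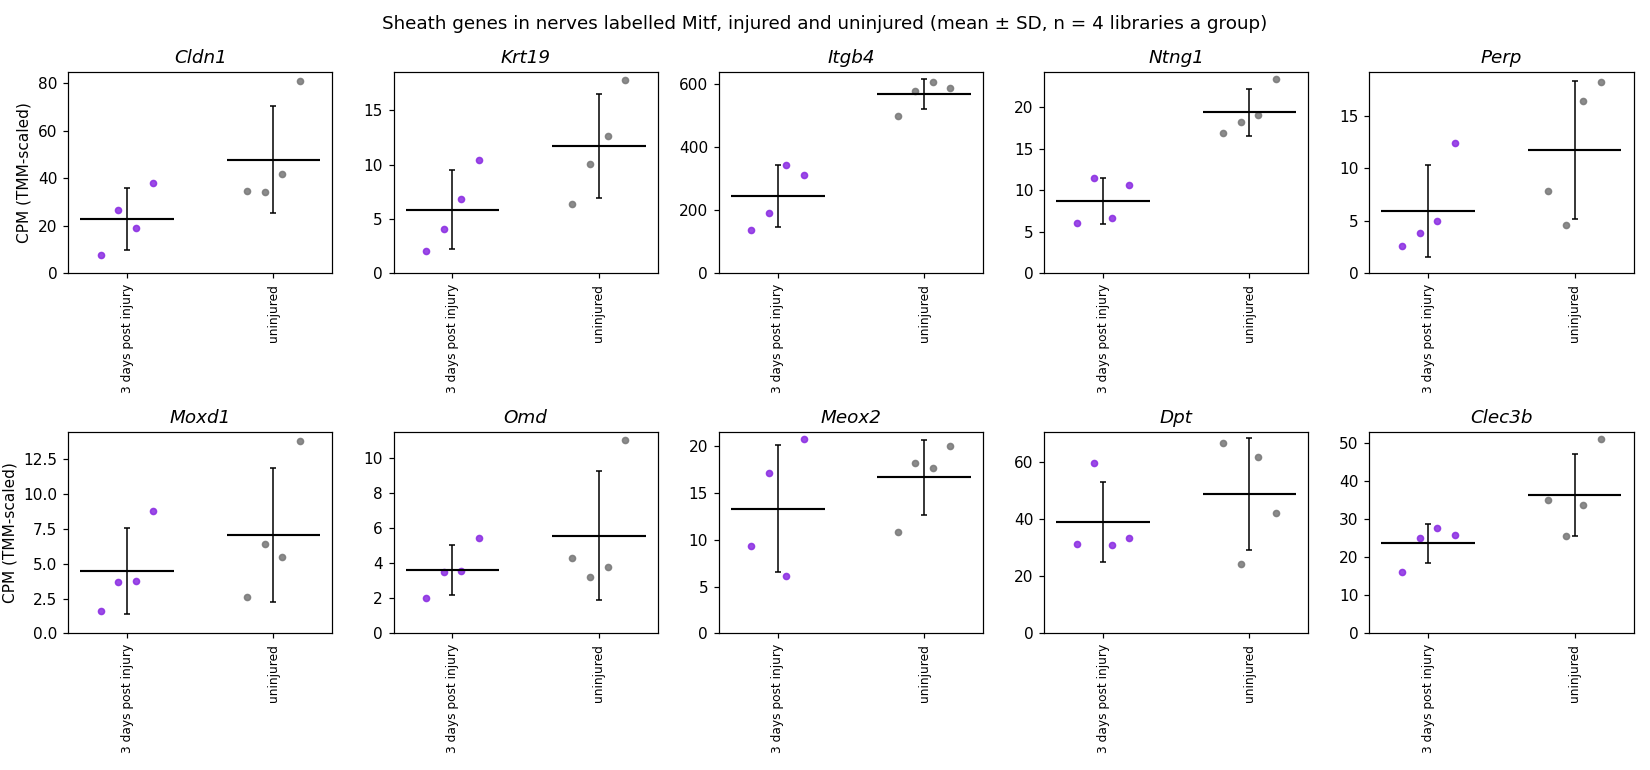
CPM of the 10 genes in nerves labelled Mitf 3 days post injury (left) and uninjured (right), with points for libraries and bars for the mean and SD (n = 4 each). Itgb4 and Ntng1 do not overlap between the groups; the other 8 do.

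In the time course, 8 of the 10 genes rose between 3 and 7 days post injury in nerves of both labels: Cldn1, Krt19, Ntng1, Moxd1, Omd, Meox2, Dpt and Clec3b. Itgb4 fell in wild type nerves. In Mutant nerves the 8 compare with 16.2% of 15852 genes called higher. In wild type nerves the 8 compare with 19.4% called higher, and the 1 lower member with 19.6% called lower. The median change of the 10 was 1.49 in Mutant and 1.33 in wild type nerves, against 0.00058 in Mutant and 0.04 in wild type nerves over all genes tested. No library served both labels.

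Cldn1 had the largest change of the 10 over this interval in nerves of each label. In Mutant nerves it stood at 41.8, 36.0 and 41.4 CPM at 3 days, at 311, 179 and 273 CPM at 7 days, and at 524, 503 and 715 CPM at 14 days. Wild type nerves held 43.2, 39.1 and 35.8 CPM at 3 days, 184, 260.4 and 259 CPM at 7 days, and 669, 467 and 673 CPM at 14 days. The days did not overlap within a label, while the labels overlapped at each day. Between 3 and 7 days Cldn1 rose by 2.68 in Mutant (SE 0.230, edgeR adjusted p = 1.74e-06) and by 2.57 in wild type nerves (SE 0.229, adjusted p = 1.49e-06). Between 7 and 14 days it rose by 1.19 in Mutant (adjusted p = 0.0028) and by 1.36 in wild type nerves (adjusted p = 0.00416).

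Omd (ENSMUSG00000048368.9, chromosome 13, 49582462 to 49592822, plus strand) encodes osteomodulin, a collagen-binding proteoglycan. In Mutant nerves it read 2.38, 3.07 and 3.43 CPM at 3 days, 11.4, 10.3 and 10.1 CPM at 7 days, and 25.0, 26.5 and 20.4 CPM at 14 days. The wild type values were 1.82, 2.15 and 2.46 CPM at 3 days, 11.1, 7.94 and 15.5 CPM at 7 days, and 28.1, 27.2 and 31.0 CPM at 14 days. As for Cldn1, the days did not overlap within a label. Omd rose to 7 days by 1.83 in Mutant (SE 0.215, edgeR adjusted p = 2.41e-05) and by 2.42 in wild type nerves (SE 0.221, adjusted p = 1.72e-06), and to 14 days by 1.18 in Mutant and 1.32 in wild type nerves. At 14 days all Mutant libraries lay below all wild type libraries, a difference that did not pass the test (-0.26, adjusted p = 0.393).

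Meox2 (ENSMUSG00000036144.6, chromosome 12, 37108540 to 37179534, plus strand) encodes a homeobox transcription factor of mesodermal tissues. In Mutant nerves it read 26.0, 26.6 and 28.1 CPM at 3 days, 102, 68.5 and 98.3 CPM at 7 days, and 173, 171 and 209 CPM at 14 days. The wild type values were 26.8, 27.1 and 26.9 CPM at 3 days, 111, 123 and 95.8 CPM at 7 days, and 212, 161 and 177 CPM at 14 days. Every later library lay above every earlier one. Meox2 rose to 7 days by 1.74 in Mutant (SE 0.159) and 2.03 in wild type nerves (SE 0.160), and to 14 days by 1.04 in Mutant and 0.73 in wild type nerves; the last call was lost without wild type replicate 3 at 7 days (0.65, adjusted p = 0.053).

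Dpt (ENSMUSG00000026574.5, chromosome 1, 164796644 to 164824266, plus strand), dermatopontin, and Clec3b (ENSMUSG00000025784.5, chromosome 9, 123150946 to 123157432, plus strand), tetranectin, are secreted proteins of connective tissue. Dpt read 66.3, 60.8 and 90.3 CPM at 3 days and 207, 243 and 252 CPM at 7 days in Mutant nerves, and 55.8, 98.2 and 117 CPM at 3 days and 534, 338 and 220.5 CPM at 7 days in wild type nerves. It rose by 1.69 in Mutant (SE 0.349, edgeR adjusted p = 0.00186) and by 2.01 in wild type nerves (SE 0.353, adjusted p = 0.000457). Clec3b read 48.4, 46.2 and 56.8 CPM at 3 days and 197, 164 and 203 CPM at 7 days in Mutant nerves, and 38.0, 76.7 and 58.5 CPM at 3 days and 244, 179 and 114 CPM at 7 days in wild type nerves. For both genes every library at 7 days lay above every library at 3 days, and the wild type libraries were the more widely spread at 7 days. Clec3b rose by 1.90 in Mutant and 1.63 in wild type nerves. Neither gene was called between 7 and 14 days: Dpt changed by 0.39 in Mutant and 0.12 in wild type nerves, and Clec3b by 0.29 in Mutant and 0.14 in wild type nerves.

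Krt19 averaged 6.79 ± 1.21 CPM at 3 days, 15.8 ± 1.98 CPM at 7 days and 36.0 ± 9.37 CPM at 14 days in Mutant nerves (SD, n = 3 each). In wild type nerves it averaged 7.16 ± 1.03 CPM at 3 days, 14.6 ± 6.41 CPM at 7 days and 28.3 ± 9.34 CPM at 14 days (SD, n = 3 each). It rose to 7 days by 1.22 in Mutant and 1.02 in wild type nerves. To 14 days it rose by 1.19 in Mutant nerves (edgeR adjusted p = 0.0131), while the wild type change of 0.96 did not pass (adjusted p = 0.0553; DESeq2 adjusted p = 0.0173). The wild type rise to 7 days was not called without wild type replicate 3 of 7 days (0.62, adjusted p = 0.0957) or of 3 days (0.95, adjusted p = 0.0516), and the Mutant rise to 14 days was not called without Mutant replicate 2 of 7 days (1.08, adjusted p = 0.0588).

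Moxd1 (ENSMUSG00000020000.7, chromosome 10, 24223517 to 24302790, plus strand), a relative of the copper monooxygenases, averaged 16.0 ± 2.68 CPM at 3 days and 39.1 ± 6.56 CPM at 7 days in Mutant nerves, and 17.2 ± 4.90 CPM at 3 days and 31.8 ± 6.65 CPM at 7 days in wild type nerves (SD, n = 3 each). It rose by 1.29 in Mutant (SE 0.254) and 0.88 in wild type nerves (SE 0.252), and the wild type call was lost without replicate 1 of 3 days (0.71, adjusted p = 0.0622). Ntng1 rose by 1.11 in Mutant nerves (SE 0.223, edgeR adjusted p = 0.00155) and by 0.65 in wild type nerves (SE 0.224, adjusted p = 0.0312). The wild type ranges of Ntng1 overlapped between the days, and its call was lost without wild type replicate 1, 2 or 3 of 3 days or replicate 1 or 3 of 7 days (0.35 to 0.71).

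Perp averaged 12.4 ± 3.43 CPM at 3 days, 13.9 ± 3.10 CPM at 7 days and 24.3 ± 7.09 CPM at 14 days in Mutant nerves (SD, n = 3 each). In wild type nerves it averaged 12.4 ± 2.02 CPM at 3 days, 14.1 ± 6.60 CPM at 7 days and 30.9 ± 8.51 CPM at 14 days (SD, n = 3 each). To 7 days its change of 0.16 in Mutant and 0.17 in wild type nerves did not pass. To 14 days it rose by 1.14 in wild type nerves (SE 0.327, edgeR adjusted p = 0.0479), with 0.81 (adjusted p = 0.0932) in Mutant nerves. The call was lost without wild type replicate 1 or 2 of 7 days or replicate 2 or 3 of 14 days (0.85 to 1.22) and without the low-count filter (1.14, adjusted p = 0.0733).

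Between 7 and 14 days 4 members rose in Mutant nerves, Cldn1, Krt19, Omd and Meox2, against 8.55% of all genes called higher. In wild type nerves 4 rose, Cldn1, Perp, Omd and Meox2, against 2.52%. Moxd1 averaged 54.3 CPM in Mutant and 48.2 CPM in wild type nerves at 14 days, with every library above those of 7 days within its label. Its changes did not pass (0.48 in Mutant, edgeR adjusted p = 0.190, and 0.60 in wild type nerves, adjusted p = 0.119). A fit of the compared groups alone kept 1 member in Mutant nerves, Omd, and 2 in wild type nerves, Cldn1 and Omd.

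Markers of other cells moved over the same days. At 3 days skeletal muscle sums were 4.28 to 239 CPM in Mutant and 239 to 1696 CPM in wild type libraries. At 7 days they were 1055 to 2286 CPM in Mutant and 2528 to 27121 CPM in wild type libraries, and at 14 days 4819 to 122932 CPM in Mutant and 8215 to 96075 CPM in wild type libraries. Of 8 skeletal muscle genes 4 rose in Mutant and 3 in wild type nerves to 7 days. Without the 5 muscle-rich libraries, Ntng1 lost its wild type call to 7 days (0.35, adjusted p = 0.141), and Perp (1.19, adjusted p = 0.179) and Meox2 (0.85, adjusted p = 0.0929) lost theirs to 14 days, when 1 library of each label remained and was assumed to vary like the other groups. Cldn1 and Omd were called without them over both intervals in both labels. Of 7 adipocyte genes 3 rose in Mutant nerves to 7 days and 0 in wild type nerves. To 14 days 1 fell in Mutant and 1 rose in wild type nerves. Adipocyte sums at 3, 7 and 14 days were 2097 to 3399, 5302 to 7083 and 1888 to 6163 CPM in Mutant nerves. In wild type nerves they were 2324 to 5436, 3176 to 5613 and 8574 to 9565 CPM. All 8 endothelial genes rose in Mutant nerves to 7 days, and 2 of 8 in wild type nerves. The part of these cells in the members' values was not tested.

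**Figure D3:**
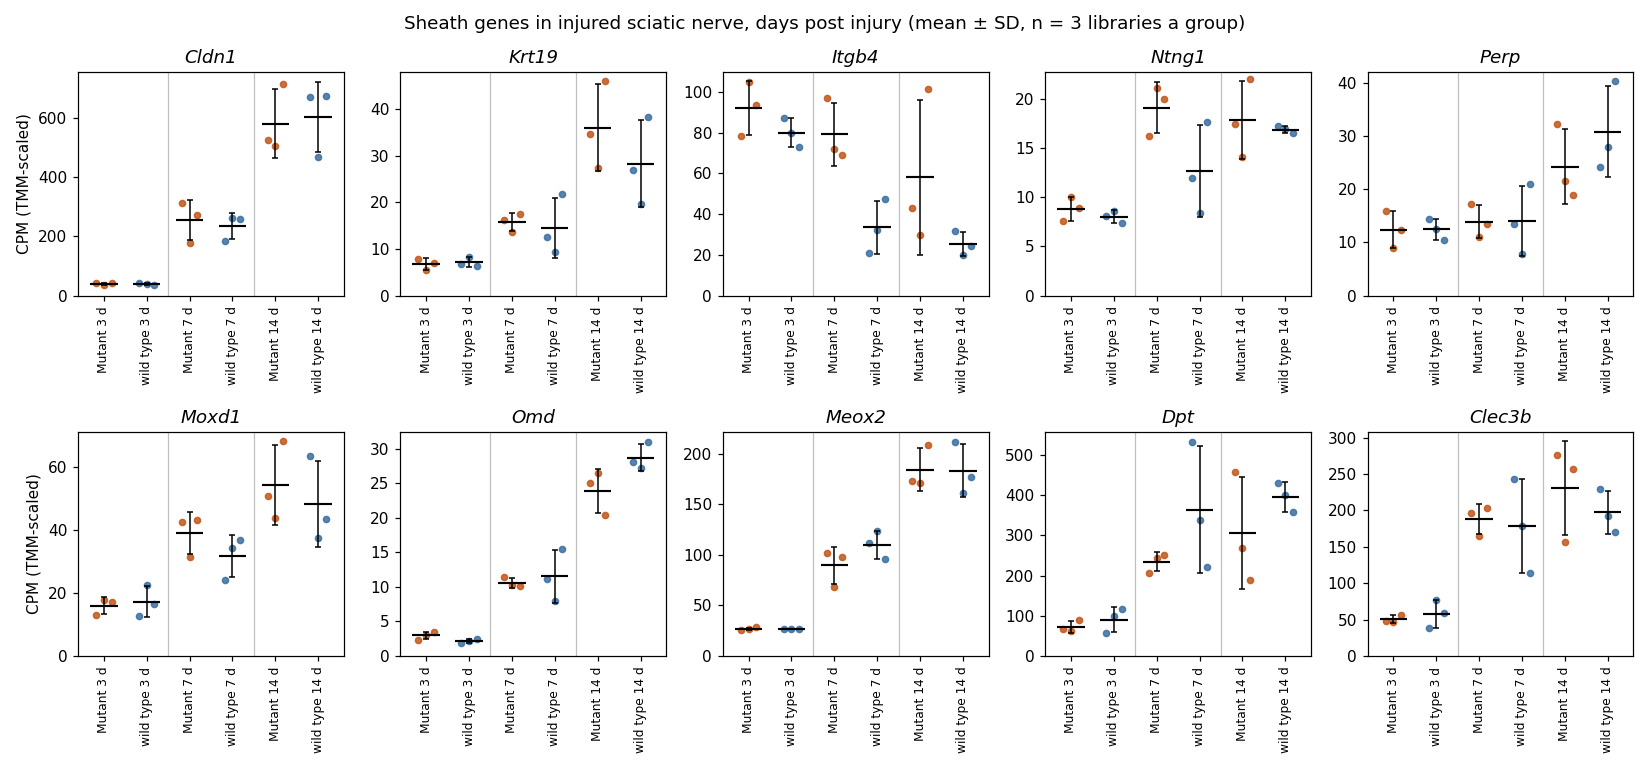
CPM of the 10 genes at 3, 7 and 14 days post injury, Mutant (orange) left of wild type (blue) at each day, with points for libraries and bars for the mean and SD (n = 3 each). Cldn1, Omd and Meox2 are higher at each later day, and Itgb4 lies higher in Mutant than in wild type nerves at 7 days.

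Related matrix genes rose over the same interval. Of 9 small leucine-rich proteoglycans, the family of Omd, 8 rose to 7 days in Mutant and 7 in wild type nerves, with none lower. Aspn rose by 2.80 in Mutant and 3.39 in wild type nerves, and Dcn, which binds collagen fibrils, by 0.95 in Mutant and 1.39 in wild type nerves. Of 14 epineurial fibroblast genes, 11 rose in Mutant and 10 in wild type nerves, none lower. They included Mfap5, a microfibril protein (1.54 in Mutant, 1.47 in wild type nerves), and Col3a1, a fibrillar collagen (1.79 in Mutant, 1.86 in wild type nerves), while Pdgfra did not pass (0.52 in Mutant, 0.44 in wild type nerves). Between 7 and 14 days none of these genes was called higher. Of the proteoglycans 1 was lower in each label, and of the epineurial fibroblast genes 3 were lower in Mutant (median -0.45) and 1 in wild type nerves (median -0.59). Lists of other cells moved to 7 days too. Of 5 endoneurial fibroblast genes 2 rose in Mutant and 3 in wild type nerves, none lower. Of 7 pericyte and smooth muscle genes 2 rose in each label, with 1 lower in wild type nerves. None of 3 simple keratins, relatives of Krt19, was called in either label.

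Tight and adherens junction partners were called about as often as all genes. Of 10, 2 rose and none fell to 7 days in Mutant nerves, F11r, a junctional adhesion molecule (1.32), and Tjp1 (0.72). In wild type nerves 2 rose, F11r (0.87) and Marveld2 (1.15), and 2 fell, among them Cgn (-1.88). Slc2a1 did not pass in either label (0.49 in Mutant, -0.12 in wild type nerves).

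Itgb4 fell in wild type nerves to 7 days and was not called over either interval in Mutant nerves. In Mutant nerves it read 78.2, 105 and 93.8 CPM at 3 days, 96.8, 71.9 and 68.8 CPM at 7 days, and 42.9, 30.0 and 101 CPM at 14 days. Wild type libraries read 87.0, 79.8 and 73.0 CPM at 3 days, 20.9, 32.4 and 47.2 CPM at 7 days, and 31.8, 19.8 and 24.4 CPM at 14 days. At 7 days every Mutant library lay above every wild type library. At 14 days Mutant replicate 2 lay within the wild type range and the other Mutant libraries above it.

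Between 3 and 7 days Itgb4 fell by 1.26 in wild type nerves (SE 0.366, edgeR adjusted p = 0.0137), a call lost without wild type replicate 1 of 7 days (-1.02, adjusted p = 0.063). Its change in Mutant nerves was -0.22 (adjusted p = 0.675). The test of the difference, the interaction of label and day over the 3 days, did not pass for Itgb4 (adjusted p = 0.479) and called none of the 10, against 0.082% of 15852 genes. Of the 10 partners of Itgb4, 5 fell in wild type nerves, among them the hemidesmosome linker Plec (-1.82) and Itga6 (-0.86). In Mutant nerves 1 of 10 fell, Plec (-1.25), and Itga6 stood at -0.38 (adjusted p = 0.307). Schwann cell markers fell as well, 2 of 7 in Mutant and 4 of 7 in wild type nerves. Their sums at 3 days were 3265 to 3715 CPM in Mutant and 2997 to 3691 CPM in wild type nerves. In the separately scaled table of nerves labelled Mitf they were 34610 to 84939 CPM 3 days post injury. Between 7 and 14 days Itgb4 was not called in either label (-0.45 in Mutant, -0.40 in wild type nerves), though without Mutant replicate 3 of 14 days its Mutant change was -1.11 (adjusted p = 0.0136).

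Between Mutant and wild type nerves no member was called, against 0% of all genes at 3 days, 0% at 7 days and 8.29% at 14 days (edgeR). An unadjusted p under 0.05 was reached by 299 genes at 3 days and 2094 at 7 days, and DESeq2 called 243 genes at 7 days. Itgb4 had the largest change of the 10 at 7 days (1.24, SE 0.367, edgeR adjusted p = 0.235) and at 14 days (1.20, SE 0.368, adjusted p = 0.0562), and stood at 0.21 at 3 days. DESeq2 called it at 7 days (1.26, adjusted p = 0.0387) and at 14 days (1.17, adjusted p = 0.0159).

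At 14 days the value turned on single libraries. The change of Itgb4 was 0.54 (adjusted p = 0.439) without Mutant replicate 3, 1.38 (adjusted p = 0.04) without Mutant replicate 1 and 1.501 (adjusted p = 0.00756) without Mutant replicate 2. Without the muscle-rich libraries, Itgb4 stood at 1.59 at 7 days (SE 0.217, edgeR adjusted p = 0.0181), and Ntng1 was called there (0.93, adjusted p = 0.0322). At 14 days only Mutant replicate 3, at 101 CPM of Itgb4, and wild type replicate 1, at 31.8 CPM, were left. The change of 1.68 at 14 days therefore rested on the Mutant library whose omission gave 0.54. The interaction of label and day drew on the same library. Schwann cell sums at 7 days were 12544, 1561 and 1245 CPM in Mutant and 1026, 803 and 1180 CPM in wild type nerves. At 14 days they were 2454, 1560 and 1628 CPM in Mutant and 2298, 1935 and 1447 CPM in wild type nerves, and their part in the Itgb4 values was not tested.

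Of 6 hedgehog pathway genes 3 were higher in Mutant than in wild type nerves at 14 days. They included Gli1 (1.82, adjusted p = 0.0043) and Ptch1 (1.13, adjusted p = 0.031), both known as targets of the pathway, while the ligand Dhh stood at 0.40 (adjusted p = 0.438). Of 10 partners of Itgb4, Dst (1.27) and Plec (1.01) were higher and Cd151 (-0.46) lower, with Itga6 at 0.73 (adjusted p = 0.103). A fit of the compared groups alone called 0 genes here, so none of these calls was kept in it. Hedgehog pathway sums had a lowest, median and highest of 215, 230.5 and 482 CPM in Mutant nerves, against 148, 181 and 217 CPM in wild type nerves, so that 1 Mutant library stood above the rest.

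**Figure D4:**
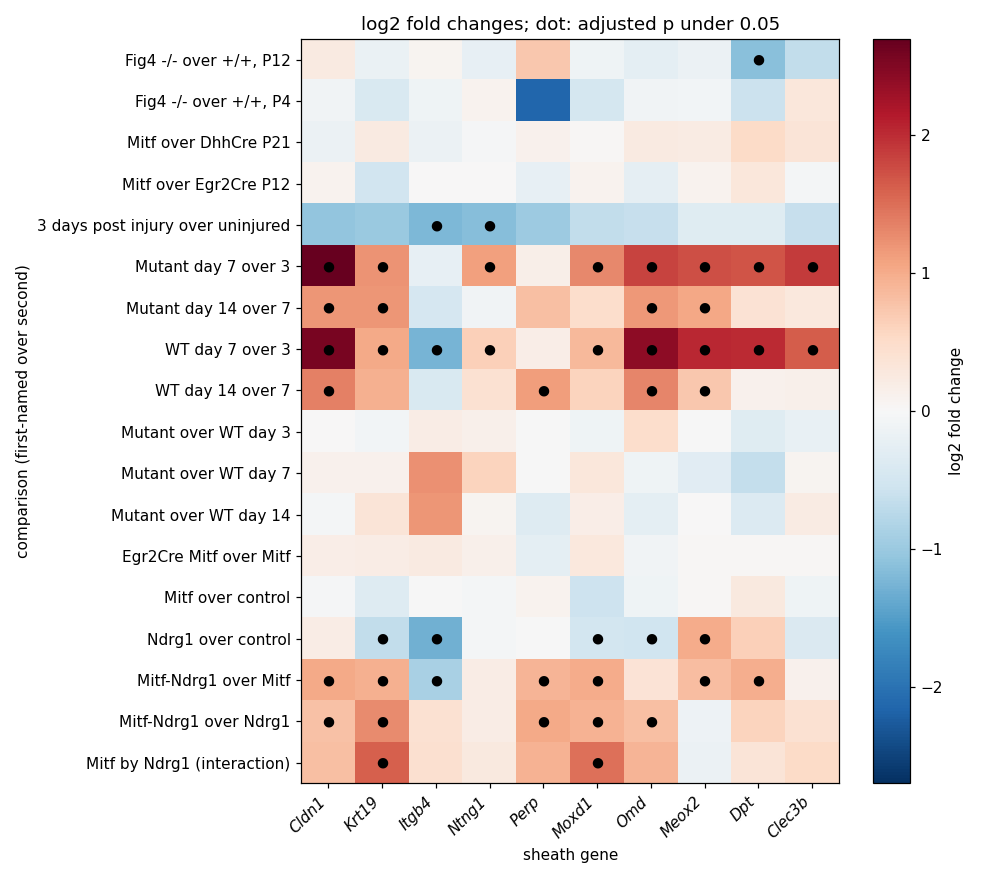
log2 fold changes of the 10 genes (columns) in 17 comparisons and the Mitf by Ndrg1 interaction (rows), first-named group over second; a dot marks an adjusted p under 0.05. WT day 7 over 3 has 9 dots and Mutant day 7 over 3 has 8, and Mutant over WT has none at any day.

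In the table with Ndrg1, libraries labelled Ndrg1 differed from controls in 5 members, Meox2 higher and Itgb4, Krt19, Omd and Moxd1 lower. The 4 lower members compare with 29.7% of 15910 genes called lower and the 1 higher member with 30.8% called higher, so the members' share was near that of all genes. Meox2 read 40.9, 48.9, 58.0, 49.1 and 46.3 CPM in Ndrg1 libraries, against 22.1, 24.2 and 26.8 CPM (lowest, median and highest of 6) in controls. Itgb4 read 170.1, 156, 86.5, 184 and 161 CPM in Ndrg1 libraries, against 299.6, 346 and 495 CPM (lowest, median and highest) in controls. Neither gene overlapped between the groups. Meox2 rose by 1.01 (SE 0.109, edgeR adjusted p = 2.18e-08) and Itgb4 fell by 1.30 (SE 0.163, adjusted p = 2.72e-07).

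The other called members were lower by less and overlapped with controls. Krt19 fell by 0.66 (edgeR adjusted p = 0.0289), Omd by 0.55 (adjusted p = 0.0122) and Moxd1 by 0.50 (adjusted p = 0.0423). The Krt19 call was lost without control replicate 1 or Ndrg1 replicate 1 or 3 (-0.44 to -0.64), the Omd call without Ndrg1 replicate 5 (-0.39), and the Moxd1 call without any of 7 libraries, which were control replicates 1 to 4 and Ndrg1 replicates 1, 4 and 5 (-0.35 to -0.51). Dpt (0.64, adjusted p = 0.0548) and Clec3b (-0.40, adjusted p = 0.0556) did not pass, though DESeq2 called both (Dpt adjusted p = 0.0164, Clec3b adjusted p = 0.04). Without the muscle-rich libraries, which lie in the other groups of the table, edgeR called Dpt (0.64, adjusted p = 0.00477) and Clec3b (-0.40, adjusted p = 0.0267). A fit of the compared groups alone also called Dpt (0.67, edgeR adjusted p = 0.00212) and Clec3b (-0.37, adjusted p = 0.023), and lost Moxd1 (-0.47, adjusted p = 0.0518). Ntng1 (-0.05) and Perp (-0.02) did not pass either.

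Partners of Itgb4 were lower in 5 of 10 and higher in none, with Itga6 at -1.57, Itga3 at -1.48 and Cd151 at -1.16. Of 10 tight and adherens junction partners 5 were lower, among them Cldn12 (-1.06), and 2 higher, and Cldn1 itself was not called (0.21, adjusted p = 0.296). All 7 Schwann cell markers were lower, and their sums were 44200 to 55711 CPM in Ndrg1 libraries, against 144846 to 174017 CPM in controls. Of 7 macrophage markers 6 were higher, with sums of 3024 to 4041 CPM in Ndrg1 libraries, against 456 to 606 CPM in controls. Endothelial genes were lower in 7 of 8, with sums of 224 to 254 CPM in Ndrg1 libraries, against 421 to 497 CPM in controls. Endoneurial fibroblast genes were higher in 4 of 5, with sums of 177 to 192 CPM in Ndrg1 libraries, against 102 to 122 CPM in controls, and epineurial fibroblast genes were higher in 5 and lower in 5 of 14. The part of these cells in the members' values was not tested.

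Mitf-Ndrg1 libraries differed from Mitf libraries in 7 members, 6 of them higher, against 29.7% of all genes called higher, and 1 lower, against 27.9% called lower. Cldn1 read 112, 100.1, 97.5, 87.4 and 87.4 CPM in Mitf-Ndrg1 libraries, against 26.0, 47.8 and 64.1 CPM (lowest, median and highest of 6) in Mitf libraries. The groups did not overlap, and Cldn1 rose by 1.02 (SE 0.167, edgeR adjusted p = 1.9e-05). Krt19 (0.96), Moxd1 (0.99) and Meox2 (0.84) rose and did not overlap, and Perp (0.91) and Dpt (0.98) rose with overlapping libraries. Itgb4 read 179, 171, 219, 195 and 242 CPM in Mitf-Ndrg1 libraries, against 284, 371 and 437 CPM (lowest, median and highest) in Mitf libraries. Itgb4 fell by 0.87 (SE 0.161, edgeR adjusted p = 6.42e-05). Of these calls Dpt was lost without the muscle-rich libraries (0.34, adjusted p = 0.307). Ntng1 (0.21), Omd (0.38) and Clec3b (0.12) did not pass.

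Markers of other cells moved in this contrast too. All 7 adipocyte genes were higher (median 2.60), with sums of 77.4 to 860 CPM in Mitf-Ndrg1 and 22.5 to 212 CPM in Mitf libraries, and 6 of 7 macrophage markers were higher. All 7 Schwann cell markers and 6 of 8 endothelial genes were lower. Of 14 epineurial fibroblast genes 9 were higher and 3 lower, and the part of these cells in the members' values was not tested.

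The same Mitf-Ndrg1 libraries were set against Ndrg1 libraries, so these comparisons share samples. In that contrast 5 members were higher and none lower, against 1.07% of all genes called higher. Krt19 read 7.96, 13.2, 10.9, 10.5 and 7.69 CPM in Mitf-Ndrg1 libraries, against 3.95, 5.03, 2.75, 4.53 and 4.42 CPM in Ndrg1 libraries. Moxd1 read 12.3, 7.11, 7.74, 7.94 and 6.35 CPM in Mitf-Ndrg1 libraries, against 4.27, 5.61, 5.31, 3.32 and 3.34 CPM in Ndrg1 libraries. Neither overlapped, and Mitf-Ndrg1 replicate 1 was the highest in Moxd1. Krt19 rose by 1.27 (SE 0.265, edgeR adjusted p = 0.0196), Moxd1 by 0.93 (SE 0.216, adjusted p = 0.032) and Cldn1 by 0.79 (SE 0.175, adjusted p = 0.0296). Perp rose by 1.02 (adjusted p = 0.034) and Omd by 0.80 (adjusted p = 0.034).

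None of the 5 calls was kept without Ndrg1 replicate 5 (0.66 to 1.29, adjusted p = 0.0542 to 0.0793), and none without the muscle-rich libraries (0.53 to 1.16, adjusted p = 0.0668 to 0.215), which are Mitf-Ndrg1 replicates 1, 2 and 4 here. Without Ndrg1 replicate 1 or 2, or Mitf-Ndrg1 replicate 2 or 3, 2 calls were left, and without Ndrg1 replicate 4 or Mitf-Ndrg1 replicate 4, 1 call was left. Without Mitf-Ndrg1 replicate 1, Moxd1 was not called (0.74, adjusted p = 0.051). Adipocyte sums were 860, 638, 180.4, 835 and 77.4 CPM in Mitf-Ndrg1 libraries and 81.98, 195, 146, 86.8 and 130 CPM in Ndrg1 libraries, though none of the 7 adipocyte genes was called. Of 8 endothelial genes 4 were higher, as were Slc2a1 (0.58) among the junction partners, Cd151 (0.49) among the partners of Itgb4 and Dpp4 (0.67) among the epineurial fibroblast genes. The part of vessels, fat and muscle in the members' values was not tested.

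The interaction of Mitf and Ndrg1, which asks whether the change with Mitf differs between libraries with and without the Ndrg1 label, was positive and called for 2 members, against 0.289% of all genes called higher. Krt19 stood at 1.62 (SE 0.357, edgeR adjusted p = 0.0419) and Moxd1 at 1.49 (SE 0.293, adjusted p = 0.0232). Without the Ndrg1 label, Mitf libraries lay at -0.35 for Krt19 and -0.56 for Moxd1 relative to controls, uncalled in both cases. In all, no member was called between Mitf libraries and controls, against 0.00629% of 15910 genes. Without the muscle-rich libraries neither interaction passed (Krt19 1.60, adjusted p = 0.124; Moxd1 1.34, adjusted p = 0.0934). Krt19 lost its call without any 1 of 13 libraries (1.41 to 1.70), which were control replicates 1, 2 and 6, Mitf replicates 2, 3 and 4, Ndrg1 replicates 1, 2, 4 and 5, and Mitf-Ndrg1 replicates 2, 3 and 4, and Moxd1 lost its call without Ndrg1 replicate 5 (1.38, adjusted p = 0.054). DESeq2 also called Cldn1 (0.80, adjusted p = 0.0371) and Omd (0.91, adjusted p = 0.0291).

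**Figure D5:**
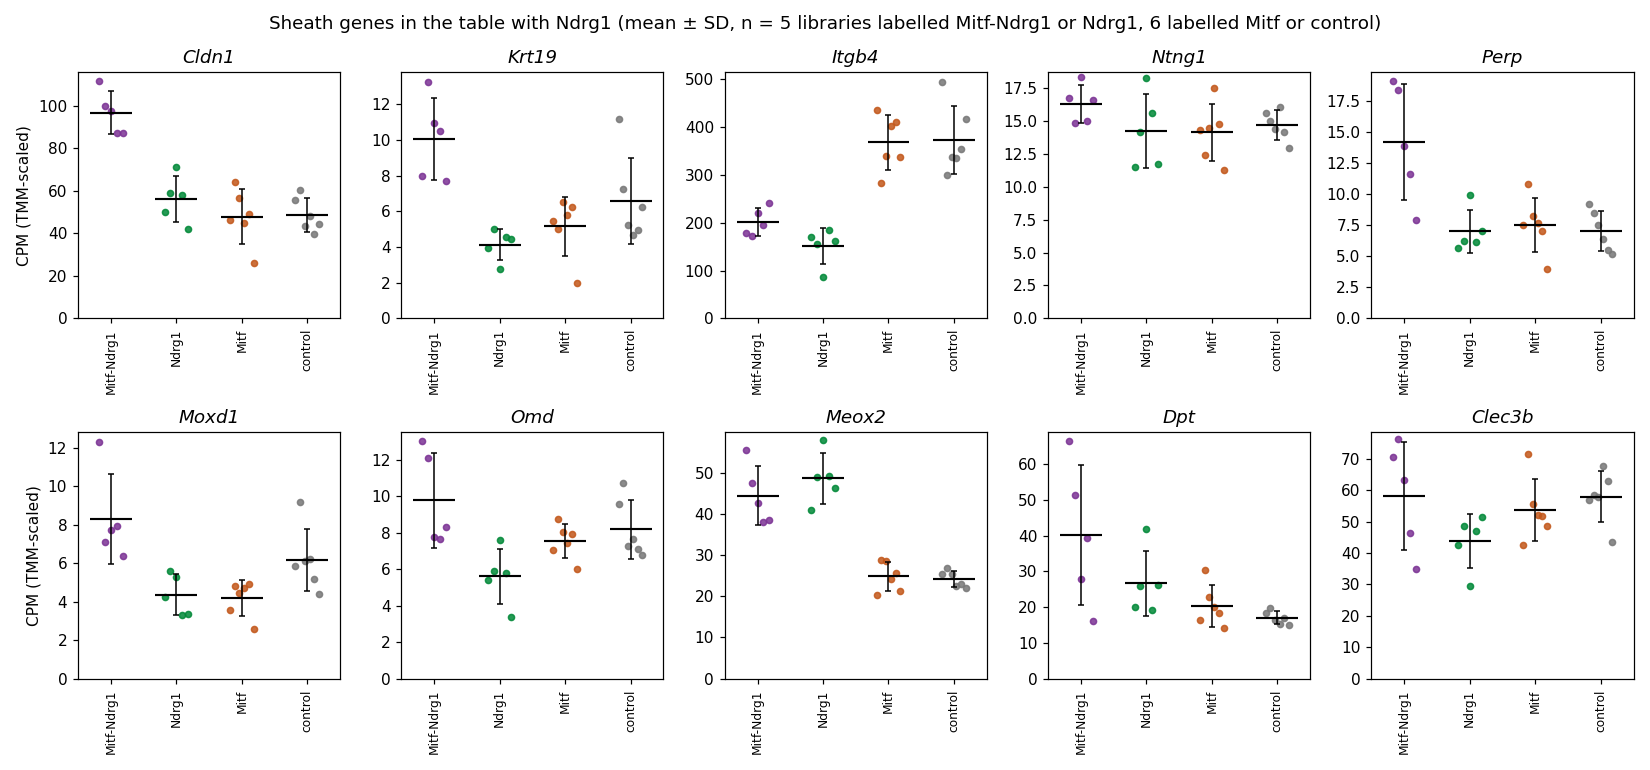
CPM of the 10 genes in libraries labelled Mitf-Ndrg1, Ndrg1, Mitf and control, with points for libraries and bars for the mean and SD (n = 5 Mitf-Ndrg1, 5 Ndrg1, 6 Mitf and 6 control). Cldn1 is highest in Mitf-Ndrg1 libraries, Meox2 is higher in both groups with the Ndrg1 label, and Itgb4 is lower in both.

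The table of Egr2Cre Mitf and Mitf libraries without an age held the highest levels of several members in the series. Cldn1 read 1222, 1075 and 1012 CPM in Egr2Cre Mitf libraries and 1215, 762 and 943 CPM in Mitf libraries. Perp read 95.8, 93.9 and 96.3 CPM in Egr2Cre Mitf libraries and 156, 95.9 and 91.2 CPM in Mitf libraries. In the other 7 tables the highest group mean was 603 CPM for Cldn1 and 30.9 CPM for Perp, both in wild type nerves 14 days post injury. Egr2Cre Mitf libraries averaged 176 ± 56.3 CPM for Moxd1, with 143 ± 33.2 CPM for Mitf, and 92.6 ± 23.0 CPM for Krt19, with 80.2 ± 19.2 CPM for Mitf (SD, n = 3 each).

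Itgb4 was also high in this table, with means of 418 ± 117 CPM in the Egr2Cre Mitf group and 355 ± 70.6 CPM in the Mitf group (SD, n = 3 each). This sets the table apart from the time course at 7 and 14 days, where Cldn1 was high and Itgb4 low. Skeletal muscle sums were 15057 to 24064 CPM in the Egr2Cre Mitf group and 13201 to 57848 CPM in the Mitf group, and Schwann cell sums 26132 to 29726 CPM in the Egr2Cre Mitf group and 20247 to 29331 CPM in the Mitf group. The table was scaled on its own and no test crossed tables, so a difference in level and a difference between tables cannot be told apart. Between its groups no member was called (changes of -0.26 to 0.29), against 0% of 15482 genes. An unadjusted p under 0.05 was reached by 671 genes, and DESeq2 called 7.

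Fig4 -/- nerves differed from Fig4 +/+ nerves in 1 member at P12, Dpt, which was lower, against 1.16% of 14338 genes called lower. Dpt read 15.2, 17.7 and 19.2 CPM in Fig4 -/- nerves, against 34.7, 31.6 and 47.8 CPM in Fig4 +/+ nerves. The groups did not overlap, and Dpt fell by 1.13 (SE 0.195, edgeR adjusted p = 0.00988). The call was lost without Fig4 -/- replicate 2 (-1.15, adjusted p = 0.0606). Clec3b read 2.61, 3.96 and 5.26 CPM in Fig4 -/- nerves, against 6.18, 5.40 and 7.14 CPM in Fig4 +/+ nerves, without overlap, and its change of -0.66 did not pass (adjusted p = 0.371). Cldn1 (0.25), Itgb4 (0.07) and the other 6 did not pass either. Of 13 epineurial fibroblast genes 2 were higher and none lower, where 268 of 14338 genes were called higher, but the list's median change was -0.16 and its sums were 9428 to 13187 CPM in Fig4 -/- and 12794 to 15207 CPM in Fig4 +/+ nerves. Of 7 macrophage markers 5 were higher, with sums of 712 to 931 CPM in Fig4 -/- and 437 to 520 CPM in Fig4 +/+ nerves. Schwann cell sums were 87325 to 108673 CPM in Fig4 -/- and 114026 to 164340 CPM in Fig4 +/+ nerves, without overlap. The part of these cells in the Dpt value was not tested.

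At P4 no member was called between the same genotypes, against 0.00672% of 14888 genes. Dpt read 38.2, 48.9 and 182 CPM in Fig4 -/- nerves and 347, 30.7 and 26.7 CPM in Fig4 +/+ nerves. Clec3b read 63.6, 92.3 and 257 CPM in Fig4 -/- nerves and 214, 62.4 and 58.4 CPM in Fig4 +/+ nerves. The high value came from the same library in both genes, Fig4 -/- replicate 3 and Fig4 +/+ replicate 1, and these were the muscle-rich libraries of the table. They also had the highest adipocyte sums (372 CPM in Fig4 -/- replicate 3 and 1238 CPM in Fig4 +/+ replicate 1), against 49.5 to 93.3 CPM in the others. Their Schwann cell sums were the lowest (66778 and 42358 CPM, in that order), against 113897 to 132326 CPM. The part of these cells in the values was not tested. Moxd1 was lower in every Fig4 -/- library (4.18, 4.77 and 4.89 CPM) than in every Fig4 +/+ library (5.78, 7.20 and 6.15 CPM), a change of -0.47 (SE 0.164, edgeR adjusted p = 1). Perp had the largest change of the 10, at -2.13 (SE 1.11, adjusted p = 1), with at most 1.95 CPM in Fig4 -/- and 4.55, 0.347 and 8.34 CPM in Fig4 +/+ nerves. Its libraries overlapped. Cldn1 averaged 78.3 ± 8.71 CPM in Fig4 -/- and 83.1 ± 9.92 CPM in Fig4 +/+ nerves (SD, n = 3 each).

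No member was called between Mitf and DhhCre libraries at P21, against 0.0143% of 13943 genes, where the changes ran from -0.15 to 0.52. Clec3b averaged 64.3 ± 11.6 CPM in Mitf and 50.3 ± 6.88 CPM in DhhCre libraries (SD, n = 5 each), with a change of 0.35 (SE 0.131, edgeR adjusted p = 1). With the replicate number as a block, by which these libraries were taken as paired, no member was called either, while the count over all genes was 4 in place of 2. No member was called between Mitf and Egr2Cre libraries at P12, against 0.0139% of 14415 genes, with changes from -0.51 to 0.30. Cldn1 averaged 34.5 ± 14.3 CPM in Mitf and 32.5 ± 7.80 CPM in Egr2Cre libraries there (SD, n = 3 each).

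Across the 82 libraries, with log2(CPM + 2) centred within each table, the members rose and fell together to different degrees. These correlations are descriptions over libraries that share tables, groups and depth. Cldn1 had a Pearson r of 0.904 with Omd, 0.884 with Meox2 and 0.819 with Krt19, and Dpt had an r of 0.785 with Clec3b. With values centred within each group instead, so that differences between groups no longer count, r was 0.708 for Cldn1 with Omd, 0.583 for Cldn1 with Meox2, 0.653 for Cldn1 with Krt19 and 0.732 for Dpt with Clec3b. Itgb4 had an r of -0.622 with Dpt, -0.533 with Meox2 and -0.265 with Cldn1 within tables. Within groups its r was -0.632 with Dpt and -0.142 with Meox2, and positive with Cldn1 (0.304), Krt19 (0.328), Ntng1 (0.378) and Moxd1 (0.299).

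Likeness was taken over 11193 genes present at a mean of at least 1 CPM in every table. Members and predicted, clone and Y-linked names were left out of the genes named here. Those most like the mean of Cldn1, Itgb4, Perp and Krt19 were Mpzl2, an adhesion protein of the immunoglobulin family (r 0.853), and Vtn, vitronectin (0.842). Next came C2, a complement protease (0.835), Igfbp6, a binding protein of insulin-like growth factors (0.831), and Ecm2, a matrix protein (0.819). Itgb4 itself had an r of 0.157 with that mean, of which it is a part. Those most like the mean of Omd, Dpt and Clec3b were Arl4a, a small GTPase (0.863), Rasl12, a Ras relative (0.852), Fkbp7, a prolyl isomerase (0.843), Ecm2 (0.836) and Cdkn1c, a cell cycle inhibitor (0.832).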

How the data were processed

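Sciatic nerves were quick-frozen and their poly(A) RNA was sequenced from stranded libraries, per the labels' protocols. The authors deposited an estimated count for each gene; kallisto and mm10 are named in the submitters' processing notes, while the version, the annotation and how transcripts were summed are not stated in them. Counting by transcript can divide reads between near-identical genes. The estimated counts were rounded before testing, and columns not used numbered 0. Whole values made up 34.79% to 89.04% of a table.

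Each table was fitted alone with edgeR 4.0.16 in R 4.3.3 (filterByExpr with a minimum count of 10, TMM, robust quasi-likelihood test, two-sided, Benjamini-Hochberg adjusted p under 0.05 over all genes tested). The time course was fitted with all its groups, as was the table with Ndrg1, and contrasts within a table share libraries. An SE was taken as |log2 change| over the square root of the F statistic. The likeness used a pseudocount of 2. The test was tried on simulated data first. No replicates of a group were the same library (their counts differed with a chi-square per degree of freedom of 9.61 or more, for genes of mean count 20 and up). Positions and exon lengths are those of GENCODE vM21 on mm10, and upstream sequences those of RefSeq.

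All 10 members were tested in every comparison, and those that did not pass are in part given by range. Of other lists at most the 4 genes with the smallest p, or Slc2a1, Pdgfra, Gli1, Itga6, Dcn and Dhh, are named, except where all called genes are given; Dhh was named after its values were seen. Some list genes are not reported here. Members and lists were chosen with earlier results of these data known. The alternatives tried were DESeq2 1.42.0, RLE scaling, dropping the low-count filter, a block for the replicate number, fitting the compared groups alone, omitting single replicates, and omitting libraries whose muscle sum exceeded 5 times the table's median. Deviations from the group means correlated over 0.1 for every same-numbered pair at P21 (0.111 to 0.358) and in the table of Egr2Cre Mitf (0.211 to 0.482). The numbers were therefore taken to pair the samples there, from the data and not from the labels. Differently numbered libraries of the 2 groups were not compared. The r of 0.482 was for replicate 2, whose libraries had the highest muscle sums of their groups (24064 CPM in Egr2Cre Mitf, 57848 CPM in Mitf). The precision of every level is limited by the number of libraries, and counting error is covered by the fit.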

Additional observations from a re-analysis of the deposited data

Results flagged for a closer look

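Of 80 sets of 4 to 6 libraries (a member in a group), 6 held a library far from the others by Dixon's test at 95%, and chance flags about 1 in 20. Cldn1 read 81.1 CPM in uninjured replicate 4 of the nerves labelled Mitf, where the nearest other library read 41.7 CPM. Omd read 11.02 CPM in the same library, where the nearest other read 4.30 CPM. Dpt read 59.8 CPM in injured replicate 2 of that table, where the nearest other read 33.5 CPM. In the table with Ndrg1, Moxd1 read 12.3 CPM in Mitf-Ndrg1 replicate 1 (nearest 7.94 CPM) and 9.20 CPM in control replicate 2 (nearest 6.21 CPM), and Krt19 read 1.98 CPM in Mitf replicate 6 (nearest 5.01 CPM). Uninjured replicate 4 and Mitf-Ndrg1 replicate 1 were muscle-rich, with muscle sums of 1859 and 3105 CPM, and the other flagged libraries were not. The part of muscle in these values was not tested.

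The change with Mitf differed between libraries with and without the Ndrg1 label, by the interaction term, for Krt19 (1.62, edgeR adjusted p = 0.0419) and for Moxd1 (1.49, edgeR adjusted p = 0.0232). Without Mitf replicate 6 Krt19 was 1.45 (adjusted p = 0.036), and Moxd1 was 1.35 (adjusted p = 0.049) without the control library and 1.30 (adjusted p = 0.0229) without the Mitf-Ndrg1 library. Both calls were lost without the muscle-rich libraries (Krt19 1.60, adjusted p = 0.124; Moxd1 1.34, adjusted p = 0.0934), Krt19 was also lost without any 1 of 13 single libraries (1.41 to 1.70), and Moxd1 without Ndrg1 replicate 5 (1.38, adjusted p = 0.054).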

How the results depend on the processing

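Of 47 called member changes, 398 values with 1 replicate left out lost the call in 67 and 277 other alternatives lost it in 24; 0 had the opposite sign. DESeq2, RLE scaling and the replicate block kept all 47, no filter on low counts kept 46, the compared groups alone lost 10, and leaving out muscle-rich libraries lost 13. The cause of these changes was not tested, though the last 2 fit fewer samples.

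Members called changed as follows. With the replicate block, injury gave 4 in place of 2, adding Cldn1 (-1.18, adjusted p = 0.0337) and Krt19 (-1.14, adjusted p = 0.0296), in a table where the labels share only a number. Without muscle-rich libraries the counts were 0 for injury, 2 for Mutant over wild type at day 7, 0 for Mitf-Ndrg1 over Ndrg1 and 0 for the Mitf by Ndrg1 interaction. Member counts that take in day 14 are left out here, as 1 library of each label then remained at that day. With the compared groups alone they were 2 for wild type day 14 over 7, 1 for Mutant day 14 over 7 and 2 for Mitf-Ndrg1 over Ndrg1. DESeq2 gave 1 for Mutant over wild type at day 7, 1 at day 14 and 4 for the Mitf by Ndrg1 interaction. With 1 replicate left out the counts ran from 0 to 1 for Fig4 at P12, 0 to 1 for Mutant over wild type at day 14, 3 to 6 for Ndrg1 over control, 0 to 5 for Mitf-Ndrg1 over Ndrg1 and 0 to 3 for the Mitf by Ndrg1 interaction.

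Counts over all genes moved by over 1.5 times in these cases. Fig4 at P12 had 435 (DESeq2 966, no filter 1131, without muscle-rich libraries 177) and at P4 1 (DESeq2 7, replicate block 0, without muscle-rich libraries 13). Mitf over DhhCre had 2 (DESeq2 10, replicate block 4, without muscle-rich libraries 1) and Mitf over Egr2Cre 2 (DESeq2 12, no filter 4, replicate block 0, without muscle-rich libraries 0). Injury had 3365 (without muscle-rich libraries 574). Mutant day 14 over 7 had 2807 (no filter 1805, compared groups alone 88), and wild type 1175 (DESeq2 2425, no filter 656, replicate block 783, without muscle-rich libraries 70, compared groups alone 292). Mutant over wild type had 0 at day 7 (RLE 2, DESeq2 243, no filter 3, without muscle-rich libraries 603) and 1314 at day 14 (DESeq2 2342, no filter 846, replicate block 856, without muscle-rich libraries 4535, compared groups alone 0). Egr2Cre Mitf over Mitf had 0 (DESeq2 7), Mitf over control 1 (DESeq2 14, compared groups alone 3), Mitf-Ndrg1 over Ndrg1 234 (DESeq2 750, without muscle-rich libraries 550, compared groups alone 31), the interaction of label and day 13 (DESeq2 419, replicate block 1, without muscle-rich libraries 1372) and the Mitf by Ndrg1 interaction 62 (DESeq2 387). The replicate block changed no member call in the 2 tables where numbers were taken to pair the samples. The number of libraries, 3 in most groups, limits what could be called.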
